A study of Bos taurus with 6 samples.

Results

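The miR-30 family was examined in cultured bovine adipocytes and preadipocytes. Its members were the rows of the known-miRNA part of the table whose name is miR-30a to miR-30f, with either arm. The rule took 7 rows of 6 precursors, out of 771 known and 879 known and predicted miRNA rows, and used no measured value. The members were, however, chosen with earlier results of these data known. They were the rows of bta-miR-30a-5p, bta-miR-30b-5p, bta-miR-30b-3p, bta-miR-30c, bta-miR-30d, bta-miR-30e-5p and bta-miR-30f, and every one had reads in all 6 libraries. The prefix bta-, for cattle, is kept for the members and dropped for other miRNAs.

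MicroRNAs (miRNAs) are short RNAs that guide silencing proteins to messenger RNAs, mainly through the seed near their 5′ end. The 5p members of the miR-30 family share their seed and differ in the rest of the sequence, so that they are predicted to bind overlapping sets of messages while being transcribed from separate places in the genome. The family is known in mesenchymal precursor cells as one that favours fat over bone. In human adipose-derived stem cells miR-30a and miR-30d were described as promoting adipogenesis through RUNX2, a transcription factor of bone formation, and in mouse cells miR-30e was described as doing so through the Wnt co-receptor LRP6.

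Small RNA was sequenced from 3 samples of adipocytes and 3 samples of preadipocytes of Holstein cattle, all at passage 4 to 6. The adipocyte label goes with induction by IBMX, rosiglitazone, dexamethasone and insulin, and the preadipocytes are their precursor cells. The medium for both was F12/DMEM, to which FBS (10%) and antibiotics (1%) had been added. The sources used here do not give the animals' age and sex or the length of the induction. The labels leave unsaid whether each replicate is a culture or an animal of its own, so the spread behind each p-value is that of these samples and may be technical. Fewer cells of a type cannot be told apart from less RNA per cell.

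The libraries held 19292757 to 25801117 reads in the table and 14525284 to 22283754 reads of known and predicted miRNAs. One miRNA, miR-21-5p, took 64% to 74.1% of the miRNA reads in adipocytes and 77.9% to 80.2% in preadipocytes, so that the scaling between libraries matters for every other miRNA. Levels below are in CPM, the read count scaled to the library's miRNA reads multiplied by edgeR's TMM factor. Mature miRNAs are of nearly equal length, so levels were not divided by length. The fat cell markers PPARG and FABP4 are messenger RNAs and were not measured in these small RNA libraries. Among miRNAs of other cell types, the summed level of 4 skeletal muscle miRNAs was 20.6 to 25.8 CPM in adipocytes, against 21.3 to 52.9 CPM in preadipocytes. That of 5 blood and myeloid ones was 0.379 to 1.02 CPM in adipocytes, against 1.96 to 4.64 CPM in preadipocytes, without overlap. That of 5 epithelial ones was 0.46 to 0.71 CPM in adipocytes, against 0.547 to 1.06 CPM in preadipocytes. The 4 neural ones summed to 60.2 to 68.2 CPM in adipocytes and 54 to 95.1 CPM in preadipocytes. The 2 endothelial arms of miR-126 summed to 43 to 67.9 CPM in adipocytes and 114 to 455 CPM in preadipocytes, without overlap. The blood marker miR-142-5p and the epithelial markers miR-205 and miR-203 were looked for and had no row under these names. The 6 mesenchymal ones, which include miR-21-5p, summed to 502796 to 760713 CPM in adipocytes and 958297 to 1135975 CPM in preadipocytes, also without overlap. TMM factors of 0.734 to 0.846 in the preadipocyte libraries raise the CPM there. The part of these cell types in the results below was not tested.

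The family was present at a moderate level and was made up mostly of bta-miR-30d in both cell states. The names of bta-miR-30c, bta-miR-30d and bta-miR-30f give no arm, and these rows were counted as 5p without a check of their sequence. The 6 rows of the 5p family together held 27246, 20874 and 17645 reads in adipocyte replicates 1, 2 and 3, against 17118, 12255 and 20019 reads in preadipocyte replicates 1, 2 and 3. Their summed level was 1081 ± 234 CPM in adipocytes, against 1129 ± 107 CPM in preadipocytes (SD, n = 3 each). The groups overlapped, and the log2 difference of the sum, adipocytes over preadipocytes, was -0.06 (SE 0.25, edgeR adjusted p = 0.86, Benjamini-Hochberg over all rows tested). Without TMM factors, as reads per total miRNA reads, the difference of the sum was 0.60 (SE 0.31, edgeR adjusted p = 0.195), at a median of all miRNAs of 0.60 on that scale and -0.06 with TMM factors. On both scales the family sum therefore lay at the median of the tested miRNAs.

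In edgeR's quasi-likelihood test, 0 of the 7 members passed an adjusted p of 0.05, where 6.28% of the 414 tested miRNAs did. At an unadjusted p below 0.05 there was 1 member, bta-miR-30e-5p, against 34.1% of all tested miRNAs, and DESeq2 called the same 1 of the 6 members to which it gave an adjusted p, against 22% of the 528 miRNAs to which it gave one. Estimates were positive for 6 of the 7 members, against 50% of all miRNAs, and negative for bta-miR-30d. The median log2 difference was 0.55 over the members and -0.02 over all tested miRNAs. That member median is the estimate of the bta-miR-30c row, which had an SE of 1.12. The positive members also include bta-miR-30f, with an SE of 2.49, and both arms of miR-30b, while the summed 5p family differed by -0.06. The levels of the groups did not overlap for 2 of the 7 members, bta-miR-30e-5p with all adipocyte libraries higher and bta-miR-30d with all of them lower. Such separation was found for 44.7% of all tested miRNAs.

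**Figure D1:**
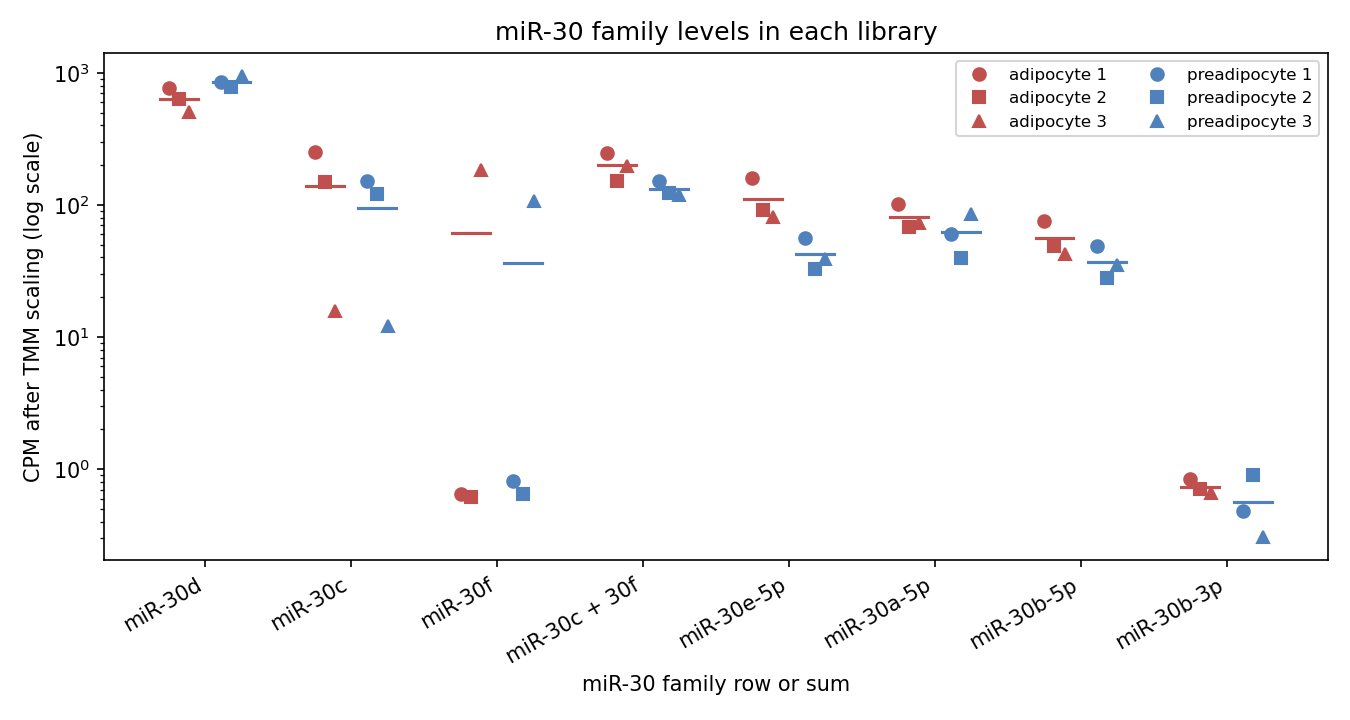
Level of each miR-30 family row, and of bta-miR-30c and bta-miR-30f summed, in CPM after TMM scaling on a log axis, for 3 adipocyte libraries (left of each pair) and 3 preadipocyte libraries; points are libraries and bars are group means on the linear scale. The adipocyte points of bta-miR-30e-5p lie above all preadipocyte points and those of bta-miR-30d lie below them, while bta-miR-30c and bta-miR-30f trade places in the libraries numbered 3.

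The largest member was bta-miR-30d, one of the members described as adipogenic in human cells. Its level was 762, 629 and 506 CPM in adipocyte replicates 1, 2 and 3, against 853, 776 and 944 CPM in preadipocyte replicates 1, 2 and 3. Every adipocyte library lay below every preadipocyte library on this scale, by a margin that was small beside the spread within the groups. The mean was 632 ± 128 CPM in adipocytes, against 858 ± 84 CPM in preadipocytes (SD, n = 3 each), a log2 difference of -0.44 (SE 0.25) that did not pass (edgeR adjusted p = 0.241). With library totals alone the groups overlapped and the difference was 0.23 (SE 0.31, edgeR adjusted p = 0.62), so its direction rests on the scaling. By mean level bta-miR-30d ranked 50 among the 365 tested known miRNAs.

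The member with the largest log2 difference was bta-miR-30e-5p, the member described in mouse cells as acting on LRP6. Its level was 160, 91.3 and 81.4 CPM in adipocyte replicates 1, 2 and 3, against 55.8, 32.6 and 38.9 CPM in preadipocyte replicates 1, 2 and 3. All adipocyte libraries lay above all preadipocyte libraries, both with TMM factors and with library totals alone, and adipocyte replicate 1 was the highest library by a wide margin. The log2 difference was 1.39 (SE 0.40), with an edgeR adjusted p of 0.0664, above the threshold. Among the 414 tested miRNAs, 68 had a smaller p and 55 a larger log2 difference. The adjusted p of bta-miR-30e-5p was 0.0268 with library totals alone, 0.0036 with DESeq2 and 0.0199 with limma on the deposited TPM, and ranged from 0.0036 to 0.235 over 19 alternatives, with a difference between 1.03 and 2.05. Many miRNAs passed in these settings, 97 of 414 with library totals alone, 116 of 528 with DESeq2 and 106 of 414 with limma. The median difference of all miRNAs was 0.62 with library totals alone and 0.39 with limma. How many miRNAs were without overlap with library totals alone was not counted.

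For bta-miR-30a-5p, the other member described as adipogenic in human cells, levels were 102, 67.8 and 73.5 CPM in adipocyte replicates 1, 2 and 3, against 60.7, 39.4 and 86 CPM in preadipocyte replicates 1, 2 and 3. Preadipocyte replicate 3 lay above adipocyte replicates 2 and 3, so the groups overlapped. The log2 difference was 0.39 (SE 0.38, edgeR adjusted p = 0.493). With library totals alone the adipocyte libraries all lay higher and the difference was 1.06 (SE 0.40, edgeR adjusted p = 0.0947). The median difference of all tested miRNAs was 0.62 on that scale, and the share of them without overlap there was not counted.

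The levels of bta-miR-30b-5p were 75.8, 49.3 and 42.8 CPM in adipocyte replicates 1, 2 and 3, against 48.6, 27.9 and 34.9 CPM in preadipocyte replicates 1, 2 and 3. In mouse fat miR-30b and miR-30c were described as favouring the thermogenic programme of brown and beige adipocytes. The groups overlapped only through preadipocyte replicate 1, which lay between adipocyte replicates 3 and 2. The log2 difference was 0.59 (SE 0.37, edgeR adjusted p = 0.279), and 1.25 (SE 0.44, edgeR adjusted p = 0.0775) with library totals alone, where the groups did not overlap. On that scale the median difference of all tested miRNAs was 0.62, and the share of them without overlap was not counted.

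The other arm of the same precursor, bta-miR-30b-3p, was the only row named as 3p that the rule took and was near the limit of detection, with 17, 15 and 13 reads in adipocyte replicates 1, 2 and 3, against 7, 11 and 5 in preadipocyte replicates 1, 2 and 3. The limit that a count of 0 sets in these libraries (3 counts, counting error only) was 0.142 to 0.244 CPM. The level of bta-miR-30b-3p was 0.739 ± 0.0924 CPM in adipocytes, against 0.56 ± 0.304 CPM in preadipocytes (SD, n = 3 each). Arm choice, the share of a precursor's reads that come from its 5p strand, did not differ beyond the spread. The log2 ratio of 5p over 3p reads was 6.16 ± 0.26 in adipocytes and 6.05 ± 1.01 in preadipocytes (two-sided exact permutation p = 1, n = 3 each), with preadipocyte replicate 2 the lowest at 4.90.

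The rows of bta-miR-30c and bta-miR-30f varied far more within each group than between the groups. The bta-miR-30c row held 5053, 3175 and 308 reads in adipocyte replicates 1, 2 and 3, against 2212, 1489 and 199 reads in preadipocyte replicates 1, 2 and 3. The bta-miR-30f row held 13, 13 and 3569 reads in adipocyte replicates 1, 2 and 3, against 12, 8 and 1754 reads in preadipocyte replicates 1, 2 and 3. In both groups nearly all reads of both rows were thus in bta-miR-30c in the libraries numbered 1 and 2, and most were in bta-miR-30f in the library numbered 3. A different assignment of like reads and a different expression of the miRNAs cannot be told apart from these counts.

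The share of bta-miR-30f in the summed reads of both rows was 92.1% in adipocyte replicate 3 (95% Wilson interval 91.2% to 92.9%), against 89.8% in preadipocyte replicate 3 (88.4% to 91.1%). In the other libraries it was 0.257% (0.15% to 0.439%) in adipocyte replicate 1 and 0.408% (0.238% to 0.696%) in adipocyte replicate 2, against 0.54% (0.309% to 0.941%) in preadipocyte replicate 1 and 0.534% (0.271% to 1.05%) in preadipocyte replicate 2. These intervals cover counting error only. As single rows, bta-miR-30c gave a log2 difference of 0.55 with an SE of 1.12 and bta-miR-30f one of 0.76 with an SE of 2.49 (edgeR adjusted p = 0.743 and 0.828), errors several times those of the other 5p members. Leaving out adipocyte replicate 3 turned the difference of bta-miR-30f to -5.96, and leaving out preadipocyte replicate 3 moved it to 6.37. With the share of reads assigned to exons, introns, repeats and intergenic sequence as a covariate, the difference of bta-miR-30c was 2.13 (SE 0.92, edgeR adjusted p = 0.155) and that of bta-miR-30f 0.25 (SE 2.48, edgeR adjusted p = 0.961), while that of their sum was 0.64.

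**Figure D2:**
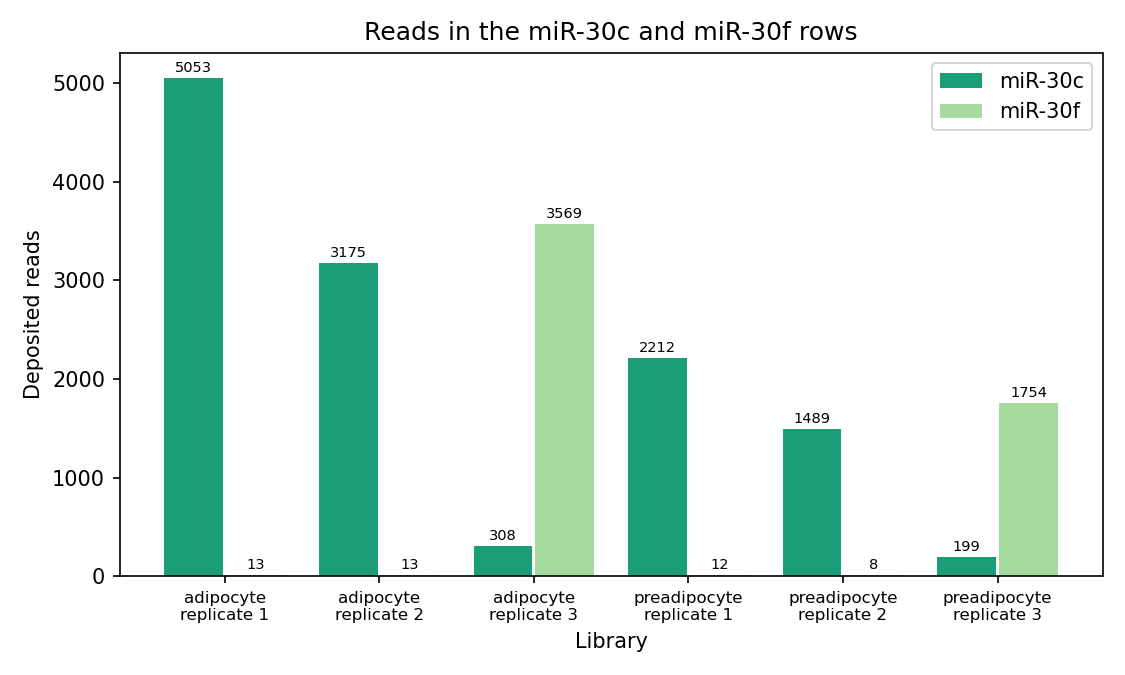
Deposited reads in the bta-miR-30c row (dark bars) and the bta-miR-30f row (light bars) of each library, with the read number above each bar. The libraries numbered 1 and 2 of both groups hold at most 13 bta-miR-30f reads and the libraries numbered 3 hold 3569 (adipocytes) and 1754 (preadipocytes).

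The other abundant known miRNAs showed no shift of this size by library number. Of 227 known miRNAs that reached 10 CPM in a library, bta-miR-30f was the only one at least 8-fold above the other libraries of its group in replicate 3 of both groups, and bta-miR-30c the only one at least 8-fold below. For the libraries numbered 1 or 2 the corresponding counts were 0. This pattern and the 8-fold limit were chosen after the values were seen. The libraries numbered 3 also had the smallest share of their group in reads assigned to exons, introns, repeats and intergenic sequence, 8.21% of the table in adipocyte replicate 3 and 5.29% in preadipocyte replicate 3, against 10.4% and 12% in the other adipocyte libraries and 18.5% and 18.9% in the other preadipocyte libraries. The part of this difference in the counts of bta-miR-30c and bta-miR-30f was not tested. Over all tested miRNAs no general pairing by number was seen: the deviations of same-numbered libraries from their group means correlated at 0.04, -0.31 and 0.02 across 414 miRNAs for numbers 1, 2 and 3 (a description across miRNAs, which are not independent replicates).

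Summed, bta-miR-30c and bta-miR-30f give a level that does not depend on how reads were divided between the rows. In human adipocyte precursors miR-30c has been described as promoting fat cell formation. The sum was 248, 151 and 199 CPM in adipocyte replicates 1, 2 and 3, against 153, 123 and 119 CPM in preadipocyte replicates 1, 2 and 3. Only adipocyte replicate 2 fell within the preadipocyte range. The mean was 199 ± 48.4 CPM in adipocytes, against 132 ± 18.2 CPM in preadipocytes (SD, n = 3 each), a log2 difference of 0.60 (SE 0.29, edgeR adjusted p = 0.184). The SE of the sum was smaller than that of either row. With library totals alone the groups did not overlap and the difference of the sum was 1.24 (SE 0.34), which passed (edgeR adjusted p = 0.0429). On that scale the median of all tested miRNAs was 0.61, and the share of them without overlap was not counted. With single rows 97 of 414 miRNAs passed there, 88 of them higher in adipocytes.

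In both cell states the order of the levels was led by bta-miR-30d, followed by bta-miR-30c and bta-miR-30f summed. In adipocytes bta-miR-30e-5p came next, then bta-miR-30a-5p, bta-miR-30b-5p and bta-miR-30b-3p. In preadipocytes bta-miR-30a-5p stood above bta-miR-30e-5p. Within each library the order of its group held without exception, in 3 of 3 libraries for each neighbouring pair, although across libraries the ranges of bta-miR-30e-5p, bta-miR-30a-5p and bta-miR-30b-5p overlapped their neighbours' in both groups, and in adipocytes that of bta-miR-30e-5p also reached into the range of bta-miR-30c and bta-miR-30f summed. In the 3 adipocyte libraries bta-miR-30e-5p had more reads than bta-miR-30a-5p (3230 against 2055 in replicate 1), and in the 3 preadipocyte libraries it had fewer (816 against 888 in replicate 1).

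Because the members are measured in the same library, their shares of the family's reads do not depend on the scaling between libraries. The share of bta-miR-30d was 58.7% ± 4.26 of the 5p family reads in adipocytes and 76% ± 2.66 in preadipocytes (SD, n = 3 each), 17.2 percentage points lower in adipocytes. The share of bta-miR-30e-5p was 10% ± 1.58 in adipocytes and 3.74% ± 0.892 in preadipocytes, and that of bta-miR-30b-5p was 5.12% ± 0.45 in adipocytes and 3.27% ± 0.77 in preadipocytes. Taken as 1 member, bta-miR-30c and bta-miR-30f held 18.6% ± 3.35 in adipocytes and 11.7% ± 1.69 in preadipocytes.

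The groups did not overlap for any of these 4 shares, and overlapped for bta-miR-30a-5p at 7.52% ± 0.645 in adipocytes and 5.39% ± 1.55 in preadipocytes. An exact permutation test, two-sided, gave p = 0.1 for each of the 4, which is the lowest value possible with 3 libraries in each group, and p = 0.2 for bta-miR-30a-5p. No share could therefore pass a threshold of 0.05. Benjamini-Hochberg adjustment of the permutation p over the 6 members gave 0.2 for bta-miR-30d, bta-miR-30e-5p and bta-miR-30b-5p. Shares are parts of the same total, so a lower share of bta-miR-30d goes with higher shares of other members. The 4 separations are therefore not independent. Among the other tested miRNAs, the ratio to the summed family was without overlap for 38%, with 23.3% higher and 14.7% lower in adipocytes. Unlike the members, those miRNAs are not part of the summed family.

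**Figure D3:**
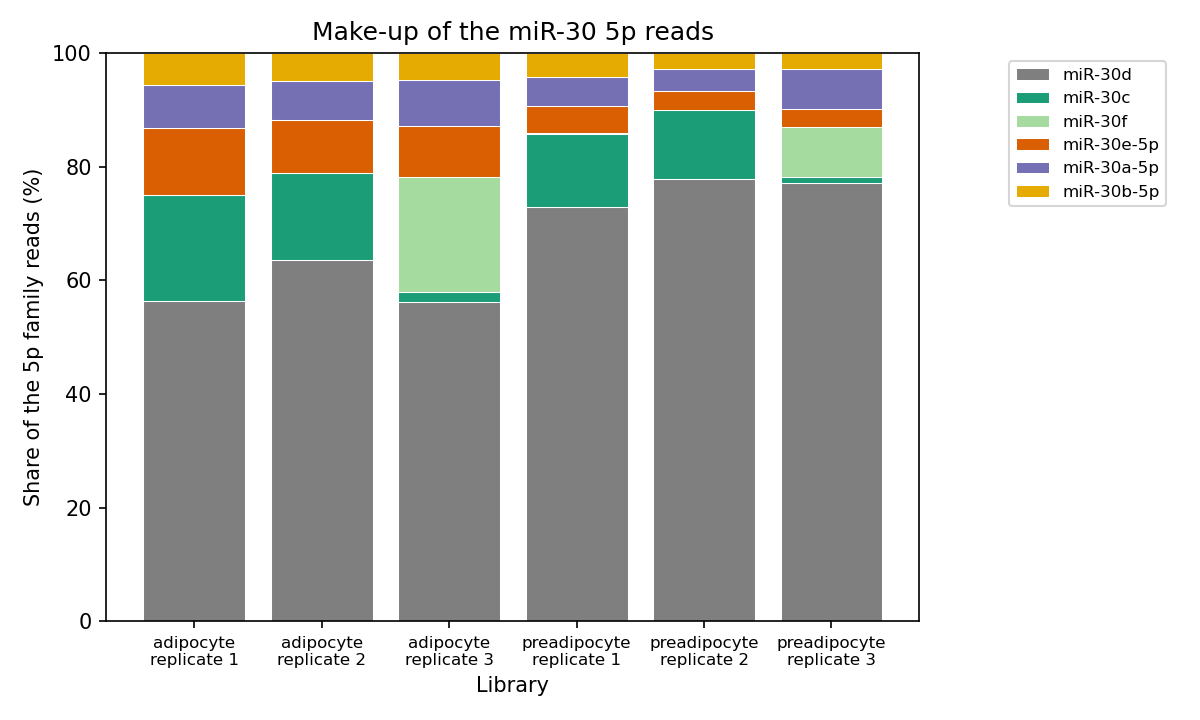
Percentage of the miR-30 5p family reads held by each member, stacked for each of the 3 adipocyte and 3 preadipocyte libraries. The bta-miR-30d part is 56.1% to 63.6% in adipocyte libraries and 72.9% to 77.8% in preadipocyte libraries, and the bta-miR-30e-5p part is 9.02% to 11.9% in adipocyte libraries and 3.18% to 4.77% in preadipocyte libraries.

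Set against bta-miR-30d in the same library, every other 5p member stood higher in adipocytes once bta-miR-30c and bta-miR-30f were summed. Per 100 reads of bta-miR-30d there were 21, 14.5 and 16.1 reads of bta-miR-30e-5p in adipocyte replicates 1, 2 and 3, against 6.54, 4.20 and 4.12 in preadipocyte replicates 1, 2 and 3. For bta-miR-30c and bta-miR-30f summed there were 33, 24 and 39.2 reads in adipocyte replicates 1, 2 and 3, against 17.8, 15.7 and 12.6 in preadipocyte replicates 1, 2 and 3. The figures for bta-miR-30a-5p were 12.9 ± 1.92 in adipocytes and 7.1 ± 2.01 in preadipocytes, and those for bta-miR-30b-5p 8.75 ± 1.09 in adipocytes and 4.33 ± 1.19 in preadipocytes (SD, n = 3 each).

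On the log2 scale these ratios differed by 1.81 for bta-miR-30e-5p, 1.04 for bta-miR-30c and bta-miR-30f summed, 1.04 for bta-miR-30b-5p and 0.89 for bta-miR-30a-5p. In all 4 the adipocyte libraries lay above all preadipocyte libraries. Since the 4 ratios share their denominator they are not independent of each other, and of the 413 other tested miRNAs 44.6% had a ratio to bta-miR-30d without overlap, 35.8% with every adipocyte library higher and 8.72% with every adipocyte library lower. The ratios were computed after the values were seen and were not tested.

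**Figure D4:**
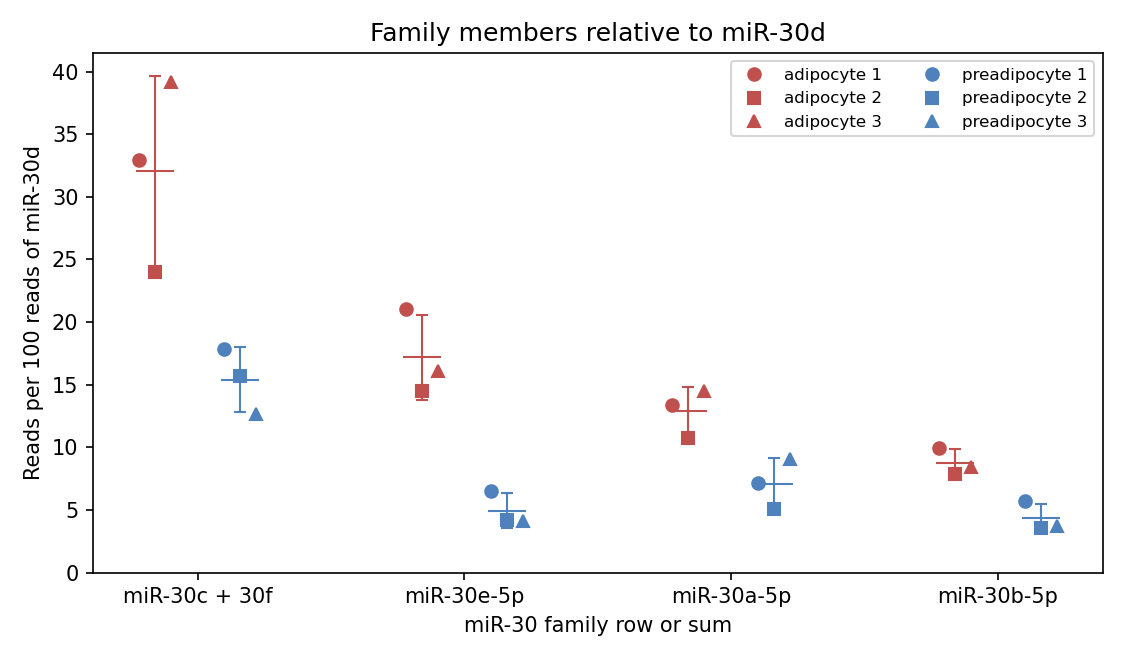
Reads of each member per 100 reads of bta-miR-30d in the same library, for 3 adipocyte (left) and 3 preadipocyte libraries; points are libraries, horizontal marks are means and bars are SD. Every adipocyte point lies above every preadipocyte point for bta-miR-30c and bta-miR-30f summed, bta-miR-30e-5p, bta-miR-30a-5p and bta-miR-30b-5p.

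The 6 precursors lie as 3 pairs that share a chromosome in the bovine genome, and distances within the pairs were not measured. RefSeq annotation of ARS-UCD2.0 was used for names and neighbours only. The genes of miR-30b and miR-30d lie on the same chromosome with no other annotated gene overlapping them, those of miR-30c and miR-30e lie within NFYC, which encodes a subunit of the CCAAT-binding factor NF-Y, and those of miR-30a and miR-30f share a chromosome. Reads within a pair were compared for miR-30b with miR-30d and for miR-30e with miR-30c, and not for miR-30a with miR-30f. The ratio of bta-miR-30b-5p to bta-miR-30d was 9.96, 7.84 and 8.45 reads per 100 in adipocyte replicates 1, 2 and 3, against 5.70, 3.59 and 3.70 in preadipocyte replicates 1, 2 and 3. A ratio to bta-miR-30d that was higher in every adipocyte library was found for 35.8% of the 413 other tested miRNAs. For bta-miR-30e-5p per 100 reads of bta-miR-30c and bta-miR-30f summed it was 55.1 ± 12.3 in adipocytes and 32 ± 5.01 in preadipocytes (SD, n = 3 each). The lowest adipocyte value of that ratio, 41 in replicate 3, lay above the highest preadipocyte value, 36.7 in replicate 1. The share of all miRNAs separated in this way was not counted, and the ratio was not tested. In the libraries numbered 3, bta-miR-30f, whose gene lies on another chromosome, held 92.1% (adipocytes) and 89.8% (preadipocytes) of that sum. How much of the sum comes from the miR-30c gene and how much from the miR-30f gene cannot be told apart from the table.

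Between members, the profile of bta-miR-30b-5p across the 6 libraries was closest to that of bta-miR-30c and bta-miR-30f summed, with a root mean square difference of 0.23 between their log2 CPM after centring. It was 0.33 between bta-miR-30b-5p and bta-miR-30a-5p and 0.39 between bta-miR-30b-5p and bta-miR-30e-5p. The farthest pair was bta-miR-30d and bta-miR-30e-5p, at 0.94. By the same measure the miRNAs outside the family closest to the summed family, of 195 known ones with a mean of at least 10 CPM, were miR-3600 (0.18), miR-425-5p (0.21), miR-25 (0.21), miR-214 (0.21) and miR-361 (0.21), against a median of 0.57. None of these 5 passed the test between the groups, with log2 differences from -0.15 to 0.10. Small differences follow from choosing them by closeness to the summed family, which itself differed by -0.06. The gene of miR-3600 overlaps MIR22, so how its reads were assigned is uncertain.

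The table also holds a row for the mir-30 precursor family of Rfam, a database of RNA families, listed apart from the named miRNAs. It held 13655, 15361 and 9294 reads in adipocyte replicates 1, 2 and 3, against 3972, 3896 and 6573 reads in preadipocyte replicates 1, 2 and 3. Every adipocyte library exceeded every preadipocyte library, in reads and in CPM. The share of all rows separated in this way was not counted. Fitted beside all miRNA, Rfam and piRNA rows, its level was 617 ± 136 CPM in adipocytes, against 269 ± 62.9 CPM in preadipocytes (SD, n = 3 each), a log2 difference of 1.20 (SE 0.31) that missed the threshold (edgeR adjusted p = 0.0808), where 3.48% of 948 rows passed and 2.64% passed as higher in adipocytes. In the same fit the summed 5p family differed by 0.21 (SE 0.26, edgeR adjusted p = 0.645).

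The Rfam row held fewer reads than the named 5p rows in every library, so it does not contain all of them. It amounted to 58.8% ± 12.9 of the summed 5p reads in adipocytes and 29.3% ± 5.28 in preadipocytes (SD, n = 3 each), and a two-sided exact permutation test gave its lowest possible value, p = 0.1. Among 408 other tested miRNAs, 23.3% had a ratio to the summed family that was higher in every adipocyte library. Other Rfam rows were not counted. The sources used here do not say which sequences the row collects or whether it shares reads with the named rows. Without preadipocyte replicate 3 the difference of the Rfam row was 1.45 and passed (edgeR adjusted p = 0.018). Calls were more frequent in general without that library. In the fit of miRNA rows alone 148 of 465 passed, against 26 of 414 with all libraries. Without any single one of the other 5 libraries the Rfam row did not pass, with differences of 0.96 to 1.41 and edgeR adjusted p of 0.151 to 0.277.

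**Figure D5:**
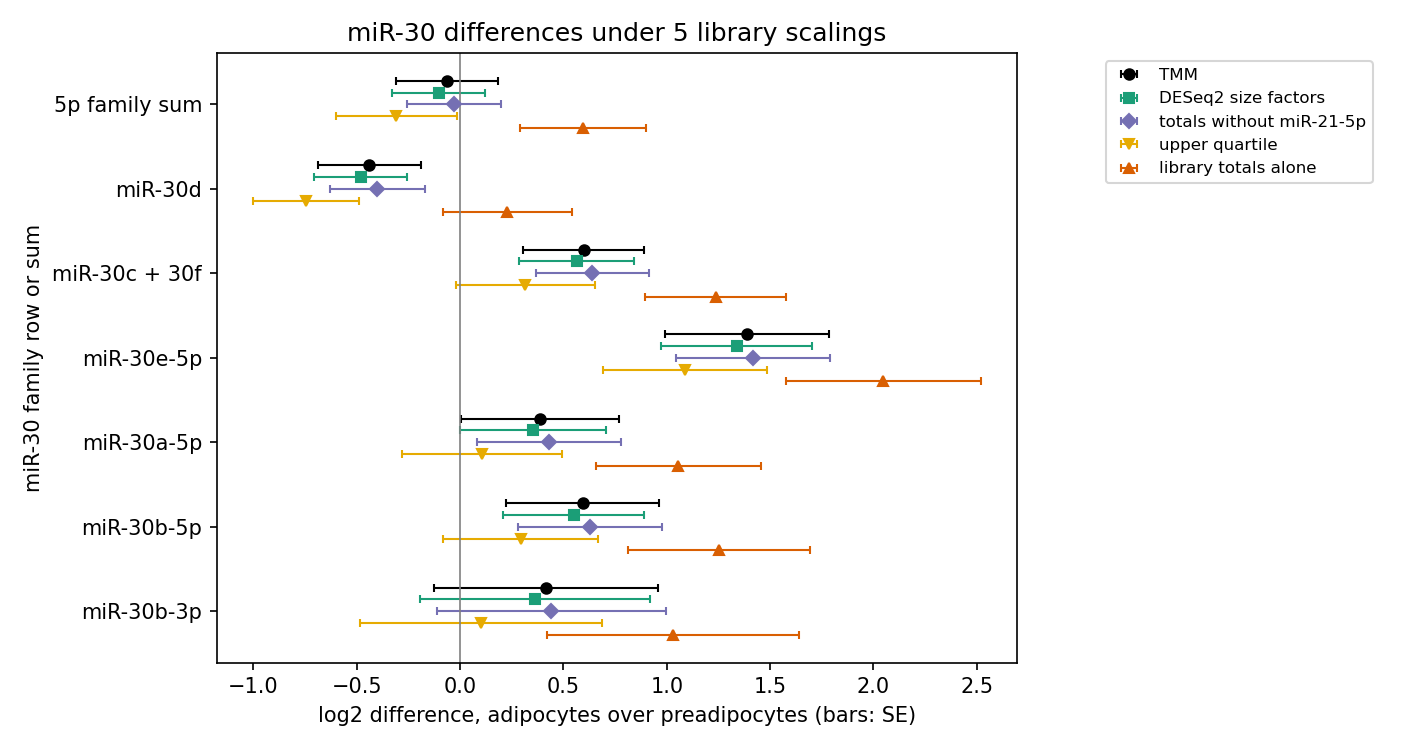
Log2 difference (adipocytes over preadipocytes, bars are SE) of the summed 5p family and of each member, with bta-miR-30c and bta-miR-30f summed, under 5 ways of scaling the libraries. With library totals alone every estimate lies to the right of its TMM value, and the summed family (0.60 against -0.06) and bta-miR-30d (0.23 against -0.44) change sign, while bta-miR-30e-5p stays between 1.09 and 2.05.

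Other miRNAs described in adipogenesis, mostly in human and mouse cells, were set beside the family in the same fit. The lists were chosen with earlier results of these data known, so their counts are no independent comparison with the background. Of 20 tested miRNAs described as promoting adipogenesis, 3 rose, 0 fell and 17 did not pass. The background was 3.86% of all tested miRNAs rising and 2.42% falling. Without adjustment 9 of the 20 had p below 0.05, against 34.1% of all tested miRNAs, and DESeq2 called 8, against 22% of all miRNAs with a DESeq2 adjusted p. The median log2 difference of the 20 was 0.13. One of the 3 that rose was miR-148a, with a mean of 1378 ± 236 CPM in the adipocyte libraries, against 430 ± 130 CPM in the preadipocyte libraries (SD, n = 3 each). Another was miR-33b, with 959, 1276 and 61 reads in adipocyte replicates 1, 2 and 3, against 13, 5 and 14 in preadipocyte replicates 1, 2 and 3. The last was miR-199a-3p, with 6757 ± 931 CPM in adipocytes, against 16.2 ± 6.83 CPM in preadipocytes (SD, n = 3 each), a log2 difference of 8.70 (SE 0.47). This miRNA has a gene copy that overlaps one of miR-3604 and did not pass when both were summed (1.00, SE 0.29, edgeR adjusted p = 0.0666). Of 23 tested miRNAs described as restraining adipogenesis, edgeR called 0 in either direction, with 4 below 0.05 without adjustment and 3 called by DESeq2, both below the shares over all miRNAs of 34.1% and 22%. The median log2 difference of the 23 was 0.22.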

How the data were processed

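Small RNA of 3 adipocyte and 3 preadipocyte samples was sequenced from RNA of 18 to 30 nt, per the labels' protocols. Per the submitters' processing notes, Bowtie2 was used. Not given in the sources used here are the build, the release of the miRNA annotation, how reads with more than 1 match were assigned, and the meaning of the type column, which marks miR-30a-5p, miR-30e-5p and miR-30b-3p as mature and the other members as hairpin. The deposited counts are whole reads per row, per the file headers. The deposited TPM values equalled the count over 1 constant per library within 0.0051 TPM in 98.8% to 99.8% of rows with a read, a count of 0 stands as 0.001, and they were used only in an alternative. The 4 genome-feature rows name no gene (5.29% to 18.9% of the table) and stayed out of library sizes.

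Known and predicted miRNA counts were tested with edgeR 4.0.16 (TMM, filterByExpr, glmQLFTest with no covariate, two-sided, Benjamini-Hochberg over 414 rows, threshold 0.05). All 7 members passed the filter. Sums replaced their rows in the same fit. Alternatives used DESeq2 1.42.0 and limma 3.58.1, and exact permutation tests SciPy 1.17.1. The fit was tested on simulated data. Profiles were compared as log2(CPM + 0.5). The members and lists were chosen with earlier results of these data known. The named miRNAs are the members, the 5 nearest profiles among known miRNAs of at least 10 CPM, list members past the threshold and the most abundant miRNA. Other rows with the family's seed were to be named too, but no mature sequences were at hand, so none were looked for.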

Additional observations from a re-analysis of the deposited data

How the results depend on the processing

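The number of miRNAs past the threshold was 26 (16 higher and 10 lower in adipocytes). It was 49 with upper-quartile factors (15 and 34), 97 with library totals alone (88 and 9), 59 with known miRNAs alone (27 and 32), 116 with DESeq2 (59 and 57), 106 with limma on the deposited TPM, 1 with the replicate number as a block, 104 without both libraries numbered 3 (added after seeing the data), 148 without preadipocyte replicate 3, 8 without adipocyte replicate 3, 4 without preadipocyte replicate 1 and 1 without any single one of the other libraries. The causes were not tested. The summed 5p family, at -0.06, turned positive with library totals alone (0.60), no low-count filter (0.025), Rfam and piRNA rows added (0.21) and limma (0.48), and lay between -0.24 and 0.025 without 1 library. It passed under none of the 19 alternatives. The sum of miR-30c and miR-30f (0.60) passed with library totals alone (1.24) and limma (1.14), and lay between 0.40 and 0.78 without 1 library. The difference of miR-30d reversed to 0.23 with library totals alone and 0.11 with limma. That of miR-30f was -0.34 without both libraries numbered 3 and between -5.96 and 6.37 without 1 library, and that of miR-30c between -0.18 (without adipocyte replicate 1) and 1.04, with 2.13 for miR-30c when the genome-feature read share was a covariate. The difference in share, in percentage points, without 1 library was between -0.70 and 8.19 for miR-30c and between -2.91 and 7.18 for miR-30f, and the log2 arm ratio of miR-30b differed by between -0.47 and 0.43. No member passed with the block. Correlations over all miRNAs showed no general pairing by number, although both libraries numbered 3 share low miR-30c and high miR-30f counts. With the block miR-30e-5p differed by 1.36 (edgeR adjusted p = 0.142), the Rfam row by 1.20 (edgeR adjusted p = 0.217) and miR-30c and miR-30f by 0.47 (SE 0.31, 1.12 without the block) and 0.16 (SE 0.41, 2.49 without it). Depth limits miR-30b-3p, which has 5 to 17 reads per library.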
